A study of Mus musculus with 24 samples.

Results

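Cd40, Cd80, Cd86, Cd274, Pdcd1lg2, Icosl and Icam1 encode surface molecules through which antigen-presenting cells contact T cells. They were taken by gene symbol from a table of 55434 mouse genes, and all 7 were found, 1 row each. Their levels are described over 8 groups of microglia, the resident macrophages of the brain, with 3 RNA-seq libraries per group and 24 in all. In the cultures the question was how each cytokine changed the cells, and in adult mice how lupus-prone microglia differed from those of the parent strain. Neonatal MRL/lpr cells received, for 6 h, a mixture of 4 cytokines or one of them, namely the type II interferon IFNg, the type I interferon IFNa, the tumour necrosis factor TNFa or the interleukin IL-6, and were compared with unstimulated neonatal MRL/lpr cells. The adult groups were untreated 16-week-old MRL/lpr mice and untreated 16-week-old MRL/MpJ mice. The MRL/lpr strain has a defective Fas gene (the lpr mutation) and spontaneously develops disease resembling lupus, and every culture, the unstimulated ones included, was of this strain. Brains were digested with enzymes and cells were picked by CD11b with magnetic beads, a gate that other myeloid cells also pass. Neonatal cells spent 48 h in medium with 10% serum, and no culture is stated for adult cells. Cytokine doses and the number of animals behind a library are not in the labels. The p-values therefore measure the spread between these libraries, which may be technical.

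A T cell that meets its antigen needs further contacts to respond. CD80 and CD86 bind CD28, which activates, or CTLA-4, which restrains, while ICOSL binds ICOS. CD40 is a receptor of the TNF receptor family that receives CD40 ligand from T cells and drives antigen-presenting cells to mature. PD-L1, encoded by Cd274, and PD-L2, encoded by Pdcd1lg2, bind PD-1 and restrain T cells, and ICAM-1 holds the contact together by binding the integrin LFA-1. Resting microglia are known to carry little of these molecules and to gain several of them in inflammation.

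Library totals were 10.08 to 19.32 M (mega) counts. Levels are CPM (counts per M counts) scaled between libraries by TMM, a correction for composition, unless called plain CPM. Calls are genes with an adjusted p below 0.05 in edgeR's quasi-likelihood test with Benjamini-Hochberg adjustment over all genes tested, and all adjusted p-values given come from it unless another tool is named. Of the 7 members, 6 had enough reads to be tested, and Pdcd1lg2 did not. Ikbke, the gene named in the study's title, encodes a kinase of innate immune signalling and stood at 7.68, 3.99 and 10.3 CPM in adult MRL/lpr against 0.074, 1.01 and 0.342 CPM in adult MRL/MpJ.

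The labelled cell type was checked against marker lists in plain CPM. All 7 microglia markers had reads in each group, and they summed to 39000 to 42300 in adult MRL/lpr and 58800 to 60300 in adult MRL/MpJ. In the neonatal cultures the sum was 4070 to 7880. Tmem119 and P2ry12, which define homeostatic microglia, were at 0.369 to 30.6 and at 4.77 to 57.3 in the cultures, while Csf1r, the receptor microglia and other macrophages depend on, was at 1330 to 3200, so the cultures carried this macrophage gene but little of the homeostatic microglial signature. Dendritic cell markers summed to 4.12 to 18.8, B cell markers to 7.66 to 47.8, and T and NK cell markers to 4.07 to 11.6 in the cultures. Neutrophil markers summed to 7.8 to 94.8 there, and monocyte markers to medians of 3.89 to 13.1. Border macrophage markers summed to 144 to 489, endothelial markers to 20.7 to 202, oligodendrocyte markers to 27.3 to 84, astrocyte markers to 13.9 to 261, and mural cell and fibroblast markers to 24 to 451. The endothelial sum was 129 to 162 with the mixture and 180 to 202 with IFNa, against 25.9 to 54.6 in unstimulated cells, with 2 of 5 tested markers called higher in both, and most of it was Flt1 and Kdr. Cdh5, another endothelial marker, was at 7.15 to 20.7 with the mixture and 12.3 to 18.4 with IFNa, against 3.18 to 9.03, while Cldn5, Pecam1 and Tek were at or under 7.15 in these groups. The microglia sum was 4070 to 4950 with the mixture, 5120 to 6430 with IFNg and 5130 to 5430 with IFNa, against 7160 to 7880 in unstimulated cells. Monocyte markers had a median sum of 13.1 with the mixture and 10.9 with IFNa, against 3.89 in unstimulated cells, without overlap. Border macrophage markers summed to 380 to 489 with IL-6, against 186 to 270, with 1 of 5 tested called higher, and oligodendrocyte markers to 27.3 to 44.8 with the mixture, against 67.5 to 81.1. In each culture group replicate 1 stood at 210 to 261 for astrocyte markers and the other libraries at 13.9 to 42.1. The part of these in the member changes was not tested. In bulk RNA, fewer cells of a type and less RNA per cell cannot be told apart.

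Against unstimulated cells, 5 of the 6 tested members rose with IFNg, 5 with IFNa, 4 with TNFa and 5 with the mixture, and none fell. Of all genes tested, 8.57% rose with IFNg, 9.41% with IFNa, 4.38% with TNFa and 15.7% with the mixture. Their median log2 fold change was 3.55 with the mixture, 3.02 with IFNg, 1.95 with IFNa and 2.29 with TNFa, beside -0.05, -0.02, -0.04 and -0.02 for all genes. With IL-6, 0 of 6 members were called by edgeR, where 0.978% of all genes were. At an unadjusted p under 0.05 there were 2, Cd40 and Icam1, and DESeq2 called 2. These comparisons share the unstimulated libraries.

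**Figure D1:**
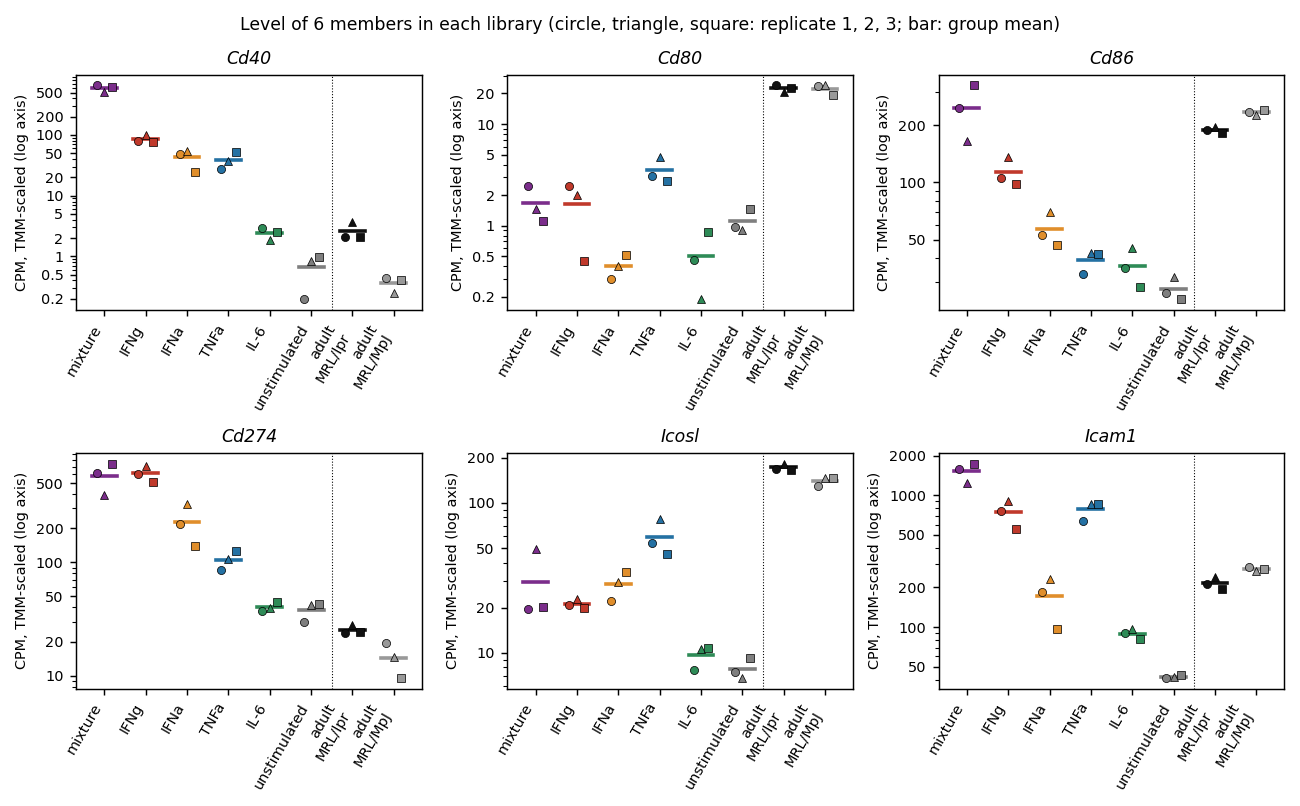
Level of 6 members in every library, as CPM on a log axis, with the cytokine groups left of the unstimulated cells and adult MRL/lpr left of adult MRL/MpJ. Symbols are replicates 1 to 3 and the bar is the group mean; Cd40 spans 0.194 to 661 CPM over the cultures, whereas Cd80 stays at or below 4.7 CPM there and stands at 19.2 to 24.1 CPM in adult cells.

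Cd40 (ENSMUSG00000017652, mm10 chr2:165055627-165072948, plus strand) had the largest log2 fold changes of the 6 tested members with the mixture and with each single cytokine. It stood at 661, 504 and 616 CPM with the mixture, at 81.1, 100 and 77.4 CPM with IFNg, at 48.6, 55 and 24.3 CPM with IFNa, at 27, 36.8 and 52.5 CPM with TNFa and at 2.93, 1.88 and 2.47 CPM with IL-6, against 0.194, 0.845 and 0.956 CPM in unstimulated cells. The unstimulated libraries held 3, 14 and 17 reads of it. Each cytokine group lay wholly above the unstimulated libraries, and IFNa replicate 3 was the lowest of its group. The log2 fold change against unstimulated cells was 9.76 ± 0.478 (SE) with the mixture (adjusted p = 3.73e-09), an 867-fold difference. It was 6.98 ± 0.442 with IFNg (adjusted p = 3.76e-07), 5.96 ± 0.432 with IFNa (1.45e-06) and 5.82 ± 0.43 with TNFa (3.12e-07). With IL-6 it was 1.86 ± 0.457 and missed the threshold (adjusted p = 0.0778). The mixture was 6.88-fold above IFNg (adjusted p = 6.2e-05). IFNg over IFNa (adjusted p = 0.0805) and IFNa over TNFa (0.891) were not called.

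Cd86 (ENSMUSG00000022901, chr16:36603869-36666081, minus strand), one of the B7 ligands of CD28 and CTLA-4, rose with the mixture and both interferons. It stood at 248, 165 and 325 CPM with the mixture, at 106, 136 and 98.5 CPM with IFNg and at 53.2, 70.1 and 47 CPM with IFNa. With TNFa it was at 33.1, 42.5 and 42.1 CPM and with IL-6 at 35.3, 45.3 and 28 CPM, against 26.1, 31.9 and 24.2 CPM in unstimulated cells. Only the IL-6 libraries overlapped the unstimulated ones, and mixture replicate 2 was well below the other two. Cd86 rose 8.97-fold with the mixture (log2 fold change 3.17 ± 0.256, adjusted p = 1.78e-07), 4.14-fold with IFNg (2.05 ± 0.246, 3.43e-05) and 2.07-fold with IFNa (1.05 ± 0.24, 0.00629). Its difference with TNFa was 0.52 ± 0.239 on the log2 scale and was not called (adjusted p = 0.257). The mixture over IFNg (2.17-fold, adjusted p = 0.00462) and IFNg over IFNa (2-fold, 0.0214) were both called.

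Cd80 (ENSMUSG00000075122, chr16:38455561-38496335, plus strand), the other ligand of CD28 and CTLA-4, was scarce in the cultures and was called in none of the comparisons with unstimulated cells. It had 33, 20 and 16 reads with the mixture, 41, 29 and 7 with IFNg, 5, 6 and 7 with IFNa, 65, 73 and 52 with TNFa and 9, 2 and 15 with IL-6, against 15, 15 and 26 in unstimulated cells. In CPM the TNFa libraries (2.78 to 4.7) lay above the unstimulated ones (0.905 to 1.46), and the IFNa libraries (0.296 to 0.514) lay below them. The log2 fold change was 1.66 ± 0.627 with TNFa (adjusted p = 0.14) and -1.45 ± 0.653 with IFNa (0.176), and DESeq2 called the TNFa difference (adjusted p = 0.048). Set against each other, IFNa was lower than TNFa by a log2 fold change of -3.11 ± 0.675 (adjusted p = 0.00392), and TNFa was 6.79-fold above IL-6 (0.0151). Cd80 and Cd86 lie on chromosome 16 with 1789.5 kb between their starts and 25 protein-coding genes inside. Per length, the ratio of Cd86 to Cd80 had a median of 10.8 with TNFa, 178 with IFNa (92.5 to 182) and 114 with the mixture (102 to 296), against 27.3 in unstimulated cells (16.7 to 35.6).

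Icosl (ENSMUSG00000000732, chr10:78069302-78083913, plus strand), whose product binds ICOS, rose most with TNFa, and its mean with the mixture was lower than with TNFa. It stood at 19.7, 49.1 and 20.2 CPM with the mixture, at 20.8, 22.8 and 19.9 CPM with IFNg, at 22.3, 29.9 and 34.4 CPM with IFNa, at 54.1, 78.1 and 45.7 CPM with TNFa and at 7.69, 10.6 and 10.7 CPM with IL-6, against 7.42, 6.82 and 9.22 CPM in unstimulated cells. Mixture replicate 2 stood apart from the other two and within the range of the TNFa libraries. Icosl rose 7.57-fold with TNFa (log2 fold change 2.92 ± 0.327, adjusted p = 2.1e-05), 3.79-fold with the mixture (1.92 ± 0.318, 0.000201), 3.69-fold with IFNa (1.88 ± 0.318, 0.000658) and 2.7-fold with IFNg (1.43 ± 0.315, 0.00572). The mixture was lower than TNFa by a log2 fold change of -1 ± 0.304 (adjusted p = 0.0227), although the libraries overlapped.

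Cd274 (ENSMUSG00000016496, chr19:29367455-29388095, plus strand), the gene of PD-L1, rose with both interferons, TNFa and the mixture. It stood at 610, 391 and 745 CPM with the mixture, at 602, 713 and 517 CPM with IFNg, at 220, 327 and 139 CPM with IFNa, at 85.4, 106 and 126 CPM with TNFa and at 37.2, 39.2 and 44.9 CPM with IL-6, against 29.7, 41.7 and 42.8 CPM in unstimulated cells. The mixture and IFNg libraries overlapped, and so did IL-6 and unstimulated ones. Cd274 rose 16-fold with IFNg (log2 fold change 4 ± 0.313, adjusted p = 8.18e-07), with the mixture by a log2 fold change of 3.93 ± 0.312 (1.63e-07), 6.01-fold with IFNa (2.59 ± 0.295, 2.39e-05) and 2.78-fold with TNFa (1.47 ± 0.284, 0.00297). The mixture and IFNg differed by -0.07 ± 0.276 on the log2 scale (adjusted p = 0.933). The mixture over IFNa (2.54-fold, adjusted p = 0.00685), IFNa over TNFa (2.16-fold, 0.0109) and TNFa over IL-6 (2.62-fold, 0.00492) were called.

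Pdcd1lg2 (ENSMUSG00000016498, chr19:29410919-29471161, plus strand), the gene of PD-L2, stayed near 0 reads. It had 2, 9 and 12 reads with the mixture, 8, 6 and 2 with IFNg, 0, 1 and 1 with IFNa, 4, 7 and 1 with TNFa and 0, 0 and 0 with IL-6, against 0, 0 and 1 in unstimulated cells. Over the group, the mixture to unstimulated ratio of depth-scaled reads was 20.7, with an exact 95% counting interval of 3.37 to 854 that covers counting error only. DESeq2 called this difference (adjusted p = 0.0227), whereas edgeR without a filter on low counts did not (adjusted p = 0.0896). The starts of both genes lie 43464 bases apart on the plus strand of chromosome 19, with 0 protein-coding genes inside. An antisense gene overlaps each of them, and the strand setting of the counting is not given in the sources used here; AC119228.1 over Cd274 had 27 reads in all libraries and A930007I19Rik over Pdcd1lg2 had 783.

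The 250 bases before the RefSeq start (GRCm38.p6) are shown for Cd274, which rose with IFNg, IFNa and TNFa, and for its neighbour Pdcd1lg2, which stayed near 0 reads. Both are on the plus strand, at chr19:29367188-29367437 and chr19:29410669-29410918. Capitals mark TTCGGTTTC, a match on the reverse strand to GAAANNGAA, a short form of the interferon-stimulated response element, 76 bases before the start of Cd274.
Cd274: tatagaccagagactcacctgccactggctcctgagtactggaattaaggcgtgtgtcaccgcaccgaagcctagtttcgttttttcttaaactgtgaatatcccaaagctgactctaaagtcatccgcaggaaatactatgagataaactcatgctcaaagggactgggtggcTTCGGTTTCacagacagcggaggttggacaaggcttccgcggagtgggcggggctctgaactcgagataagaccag
Pdcd1lg2: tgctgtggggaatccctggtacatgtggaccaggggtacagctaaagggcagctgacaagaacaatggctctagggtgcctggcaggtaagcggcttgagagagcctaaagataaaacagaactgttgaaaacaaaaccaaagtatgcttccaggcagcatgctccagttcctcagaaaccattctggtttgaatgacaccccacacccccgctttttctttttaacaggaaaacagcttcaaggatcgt
RefSeq windows of 300 bases (250 before and 50 after the start) were found for 5 of the 7 members, not for Cd40 and Cd86. They were searched on both strands for 9 letter strings, chosen after these windows had been looked at. GAAANNGAA was in 1 of the 5 and in 8.56% of 32851 promoters, and the same letters followed by another A, the fuller element, which the short form overlaps, were in 0 of the 5 and in 3.44%. The letters TATAAA (2 of 5, 13.6% of promoters), TGANTCA (1 of 5, 7.81%) and GAGGAA (1 of 5, 28.3%) also matched, and GGGNNTTCC (5.82%) and its form with 1 more N (5.56%), both overlapping kappaB letters, matched 0 of 5. The RefSeq start of Cd80 lies inside the gene as GENCODE annotates it. A match describes letters in the window and no site in use.

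Icam1 (ENSMUSG00000037405, chr9:21015985-21028817, plus strand), the adhesion molecule, rose with the mixture, both interferons and TNFa. It stood at 1580, 1240 and 1740 CPM with the mixture, at 765, 904 and 552 CPM with IFNg, at 184, 231 and 97.6 CPM with IFNa, at 643, 860 and 865 CPM with TNFa and at 89.6, 97.1 and 81.8 CPM with IL-6, against 41.3, 41.9 and 43.4 CPM in unstimulated cells. Each cytokine group lay wholly above the unstimulated libraries, IL-6 included, and IFNg and TNFa overlapped. Icam1 rose 36-fold with the mixture (log2 fold change 5.17 ± 0.296, adjusted p = 7.64e-09), 18.7-fold with TNFa (4.22 ± 0.283, 8.38e-08), 17.5-fold with IFNg (4.13 ± 0.282, 3.76e-07) and 4.05-fold with IFNa (2.02 ± 0.259, 6.4e-05). With IL-6 the difference was 2.12-fold (1.08 ± 0.253, adjusted p = 0.0562), and with the replicate number as a block it passed (adjusted p = 0.0357). The mixture was 1.93-fold above TNFa (adjusted p = 0.00989), and IFNg and TNFa differed by -0.09 ± 0.248 on the log2 scale (0.92).

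The window before Icam1 (chr9:21015690-21015939, plus strand, RefSeq GRCm38.p6) is shown because it alone of the 5 matched both a letter string of STAT factors and one of NF-kappaB, and Icam1 rose with IFNg and with TNFa. Capitals mark GGAAATTCC, a match to the kappaB core GGANNTTCC 153 bases before the start, and TTCCCGGAA, a match to the gamma-activated sequence TTCNNNGAA 42 bases before it.
Icam1: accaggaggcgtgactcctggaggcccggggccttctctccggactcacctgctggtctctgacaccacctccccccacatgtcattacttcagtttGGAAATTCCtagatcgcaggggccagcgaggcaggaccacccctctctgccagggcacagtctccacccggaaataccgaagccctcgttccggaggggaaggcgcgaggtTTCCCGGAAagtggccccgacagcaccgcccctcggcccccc
GGANNTTCC was in 4.26% and TTCNNNGAA in 8.3% of the 32851 promoters. An antisense gene, Gm47079, overlaps exons of Icam1 and had 89 reads in all libraries.

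**Figure D2:**
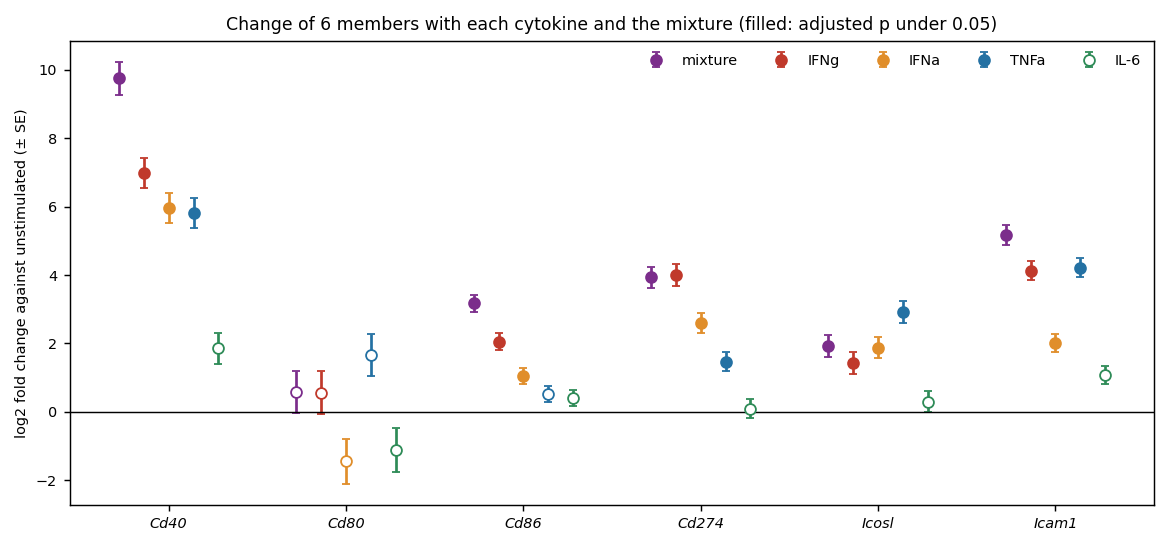
Log2 fold change against unstimulated cells with its standard error, for 6 members, by mixture, IFNg, IFNa, TNFa and IL-6 from left to right. Filled symbols passed an adjusted p of 0.05; Cd40 reaches 9.76 with the mixture, Icosl is highest with TNFa at 2.92, and the symbols of Cd80 and of IL-6 are open.

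Taken over the 15 pairs of the 6 neonatal groups, 61 of 90 member tests were called, or 67.8%, where 13.8% of all tests were. Cd274 and Icam1 were called in 13 pairs each, Cd40 in 12, Icosl in 11, Cd86 in 10 and Cd80 in 2. Over the 18 neonatal libraries, the log2 CPM of Cd40 had a Pearson r of 0.921 with Icam1, 0.916 with Cd274 and 0.87 with Cd86, while Cd80 had 0.147 with Cd86 and Icosl 0.295 with Cd86. These r describe libraries that share their cytokine groups. Among 9540 genes, the patterns most like Cd40 were those of Rnf19b (r = 0.983), Rhbdf2 (0.981) and Acod1 (0.971). For Cd274 they were Socs1 (0.98), Gbp6 (0.979) and Il10ra (0.978), for Icam1 Slc31a2 (0.972), Ifrd1 (0.971) and Lcp2 (0.969), and for Cd86 Ube2d1 (0.965), Lck (0.965) and Ube2d3 (0.961). Those nearest to Icosl were less alike, Tlr2 (0.863), Spata13 (0.857) and Dnajb6 (0.853), as were Malt1 (0.855), Ninj1 (0.845) and Tnfaip2 (0.841) for Cd80.

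Per length, the summed level of the 7 members was 758 ± 146 CPM per kb with the mixture, 400 ± 76.4 with IFNg, 137 ± 48.5 with IFNa, 246 ± 39.5 with TNFa and 44.5 ± 3.38 with IL-6, against 29.9 ± 2.73 in unstimulated cells (SD, n = 3 each). The make-up of that sum differed by cytokine. Icam1 made up 73.5% ± 0.283 of it with TNFa, against 32.6% ± 2.64 in unstimulated cells. Cd274 made up 42.3% ± 1.56 with IFNg and 45.6% ± 2.88 with IFNa but 11.8% ± 0.99 with TNFa, against 35% ± 3.84 in unstimulated cells. Cd40 made up 23.2% ± 2.34 with the mixture, against 0.632% ± 0.368 in unstimulated cells. The share of Cd86 was 8.71% ± 1.29 with the mixture, against 25.1% ± 3.35 in unstimulated cells, although its level was higher with the mixture. These shares were not tested.

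**Figure D3:**
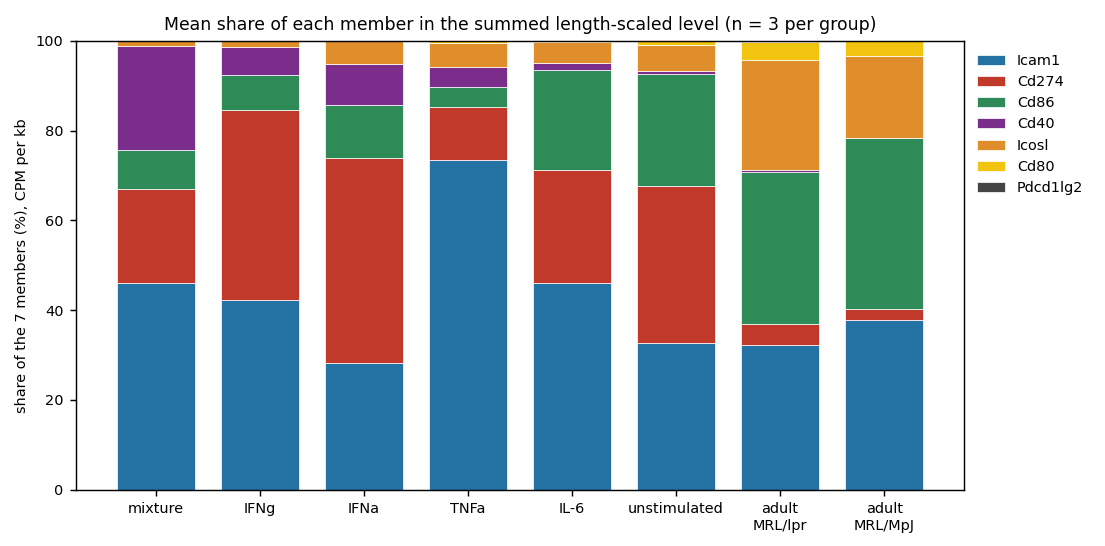
Mean share of each member in the summed level of all 7, in CPM per kb, as stacked bars for the 8 groups (n = 3 each). Icam1 fills 73.5% of the TNFa bar, Cd40 fills 23.2% of the mixture bar, and Cd86 and Icosl fill 33.8% and 24.5% of the adult MRL/lpr bar.

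Whether the mixture gave more or less than the single cytokines together depended on the scale. On the log2 scale, 4 of 6 members were lower with the mixture than the sum of their 4 single log2 fold changes, where 1.14% of all genes were called lower. For Cd40 that sum was 20.62, from a mean of 0.665 CPM in unstimulated cells, a level above a whole library. Its difference could therefore only be negative. The sum for Icam1 was 11.46, also hard to reach, so how the cytokines combine is not read from these differences. The differences were -10.86 ± 1.21 for Cd40 (adjusted p = 0.000378), -6.29 ± 0.733 for Icam1 (0.000428), -4.62 ± 0.878 for Icosl (0.0119) and -4.22 ± 0.789 for Cd274 (0.0106). Cd86, at -0.85 ± 0.637, and Cd80, at 0.94 ± 1.61, were not called (adjusted p = 0.752 and 0.946). The Icosl and Cd274 calls were lost without unstimulated replicate 1 (adjusted p = 0.0742 and 0.079) or without replicate 2 (0.102 and 0.0619).

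A sum of the increments in CPM over unstimulated cells, within the same replicate number, was added after the data were seen and was not tested. Cd40 stood at 661, 504 and 616 CPM with the mixture, against 159, 192 and 154 CPM for the sum, and was 2.63 to 4.16 times the sum in all 3 replicates. Icosl stood at 19.7, 49.1 and 20.2 CPM, against 82.6, 121 and 83.1 CPM, and was 0.238 to 0.405 times the sum. Both lay on one side of the sum in all 3 replicates, Cd40 above and Icosl below. Cd86 was 0.833 to 2.27 times, Cd274 0.369 to 1.07 times and Icam1 0.629 to 1.19 times the sum, with replicates on both sides. On plain CPM, Cd274 (0.325 to 0.858) and Icam1 (0.533 to 0.939) were below the sum in all 3. Cd80, whose increments sum to near 0, was left out after its value was seen.

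**Figure D4:**
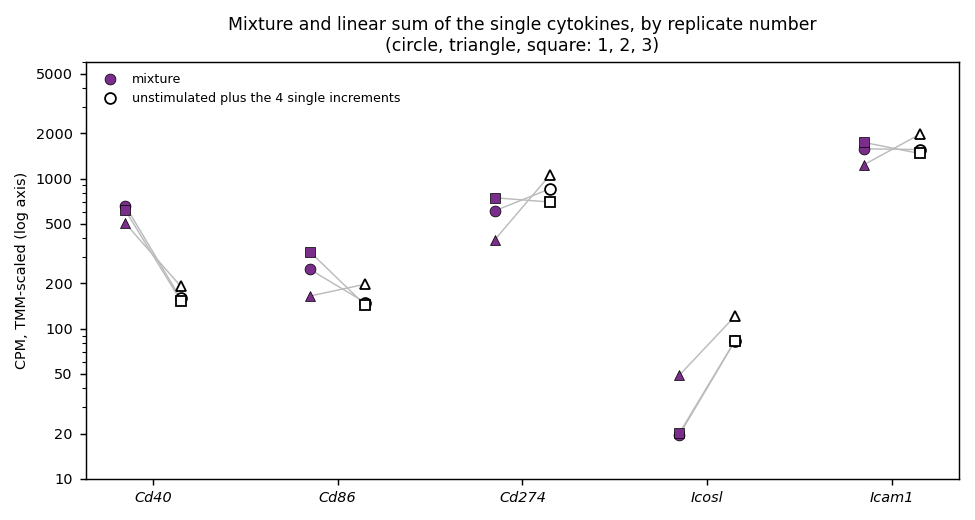
Mixture (filled, left) and unstimulated level plus the 4 single increments (open, right) for 5 members, in CPM on a log axis, with replicate numbers joined by lines. Cd40 lies above its sum and Icosl below it in all 3 replicates, and the lines of the other members run both ways.

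The genes around the members moved as follows. Of all genes, 15.7% were called higher and 16.4% lower with the mixture, 8.57% and 4.32% with IFNg, and 9.41% and 5.07% with IFNa. With TNFa the shares were 4.38% and 3.72%, and with IL-6 0.745% and 0.232%. Of 15 genes of CD40 signalling, all tested, 12 rose with the mixture, 12 with IFNg, 9 with IFNa, 9 with TNFa and 0 with IL-6 (3 at an unadjusted p under 0.05, 1 by DESeq2), and none fell. Traf1, an adaptor of TNF receptors, rose 226-fold with the mixture (2737 reads, against 14 in unstimulated cells; adjusted p = 1.9e-07), 179-fold with TNFa (1.07e-06) and 8.14-fold with IFNg (0.00381). Birc3, a ubiquitin ligase bound to TRAFs, rose 11.4-fold with TNFa (adjusted p = 4.3e-08) and by a log2 fold change of 3.48 with the mixture (2.4e-08). Of 22 transcription factors known to act on the members, 16 rose with the mixture, 15 with IFNg, 9 with IFNa, 11 with TNFa and 1 with IL-6, and 2 fell with TNFa, Irf8 (log2 fold change -1.58, adjusted p = 0.00884) and Jun (-1.07, 0.00148), named after their values were seen. Irf8 went the other way with IFNg (log2 fold change 2.79, adjusted p = 9.76e-05) and with the mixture (2.42, 8.37e-05). Irf1 rose 29-fold with IFNg (adjusted p = 1.87e-06), 23.7-fold with the mixture (5.62e-07), 4.64-fold with IFNa and 4.04-fold with TNFa. Relb rose 7.94-fold with TNFa (adjusted p = 4.07e-08), and Stat3, which carries the IL-6 signal, 3-fold with IL-6 (5.63e-05). Ciita, the master regulator of MHC class II, had 682 reads with IFNg, against 3 in unstimulated cells, a depth-scaled ratio of 216 (95% counting interval 73.6 to 1050).

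Of 26 other costimulatory or checkpoint ligands, 21 were tested, and 11 rose and 1 fell with the mixture, 4 and 2 with IFNg, 5 and 1 with IFNa, 3 and 1 with TNFa, and 0 with IL-6 (5 at an unadjusted p under 0.05, 2 by DESeq2). Tnfsf10, the ligand TRAIL, rose 77.5-fold with the mixture (adjusted p = 4.56e-05), 39-fold with IFNa (0.000433) and 14.5-fold with IFNg (0.00345). Vsir, which encodes the inhibitory ligand VISTA, fell to 93.1 CPM with TNFa and to 138 CPM with IFNa, against 418 CPM in unstimulated cells (adjusted p = 4.7e-06 and 6.68e-05). Vsir also fell with the mixture (log2 fold change -2.71, adjusted p = 1.59e-07) and with IFNg (-1.86, 2.01e-05), and was lower in adult MRL/lpr (-0.87, 1.8e-05). Tnfsf4, the OX40 ligand, had 97 reads with the mixture and 0 in unstimulated cells, at least 29.1-fold higher against a floor of 3 reads over the group. Of 14 adhesion genes, 13 were tested and 4 rose with the mixture, 3 with TNFa, 2 with IFNa, 1 with IFNg and 0 with IL-6 (0 at an unadjusted p under 0.05). None fell. Of all genes, 15.7% were called higher with the mixture, 4.38% with TNFa, 9.41% with IFNa and 8.57% with IFNg. Among the adhesion genes, DESeq2 called 4 higher and 1 lower with TNFa and 2 higher with IFNg. With total counts only, 2 adhesion genes were higher and 2 lower with IFNa. With the replicate block 7 were higher and 1 lower with the mixture, 4 higher and 2 lower with TNFa, and 5 higher with IFNg. The TNFa count was 1 without unstimulated replicate 2 or TNFa replicate 3, and the IFNg count 2 without unstimulated replicate 1. The 4 ligands called with TNFa became 2 without unstimulated replicate 2. Vcam1, a ligand of integrin alpha 4, rose 12-fold with the mixture (adjusted p = 0.0025), and Itgal, the alpha chain of LFA-1, 2.88-fold with TNFa (0.0431).

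Among the 5 T cell receptors of the members, 3 were tested in the cultures. Pdcd1, which encodes PD-1, rose 19.6-fold with the mixture (adjusted p = 0.000665) and 14.4-fold with IFNa (0.00317). It had 1023, 1437 and 2267 reads with the mixture and 1125, 1121 and 1475 with IFNa, against 49, 63 and 181 in unstimulated cells, and replicate 3 was the highest of each of these groups. Cd28 fell in all 5 comparisons, to 1.84 CPM with TNFa and 2.12 CPM with the mixture, against 18.5 CPM in unstimulated cells (adjusted p = 3.98e-05 and 1.66e-05). Its fall with IL-6 (adjusted p = 0.0189) was lost without IL-6 replicate 1 or 2 or unstimulated replicate 2 or 3, and its fall with IFNa without IFNa replicate 2. Cd40lg had 0 reads in every neonatal group but IFNa, where 1 library had 4.

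In adult cells, 3 of the 6 tested members were higher and 2 lower in MRL/lpr than in MRL/MpJ, where 24.1% of all genes were called higher and 21.6% lower. Reads were found for 20130, 19913 and 20054 genes in the MRL/lpr libraries, against 16727, 16363 and 16836 in the MRL/MpJ libraries. Library totals were 16.37, 16.52 and 17.21 M in MRL/lpr, against 15.02, 12.79 and 16.07 M. With no filter on low counts, the median log2 fold change of all genes was 0.29, against 0.01 with it. The part of this in low-read differences, those of Cd40, Pdcd1lg2 and Icos included, was not tested. Cd40 stood at 2.07, 3.71 and 2.09 CPM in MRL/lpr, against 0.444, 0.253 and 0.41 CPM in MRL/MpJ. These are 37, 66 and 40 reads against 6, 3 and 6, and the groups did not overlap. The difference was 6.93-fold (log2 fold change 2.79 ± 0.588, adjusted p = 0.00228).

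Cd274 stood at 24, 28.2 and 24.4 CPM in MRL/lpr, against 19.3, 14.5 and 9.57 CPM in MRL/MpJ, again without overlap (log2 fold change 0.82 ± 0.218, adjusted p = 0.00892). Icosl was at 168, 183 and 167 CPM in MRL/lpr, against 129, 147 and 147 CPM in MRL/MpJ (0.29 ± 0.1, adjusted p = 0.0317). Cd86 was at 189, 195 and 182 CPM in MRL/lpr, against 235, 226 and 241 CPM in MRL/MpJ (-0.31 ± 0.0921, adjusted p = 0.0157). The groups did not overlap in either gene, and both differences were small. Icam1 was at 212, 239 and 195 CPM in MRL/lpr, against 287, 266 and 276 CPM in MRL/MpJ (-0.36 ± 0.103, adjusted p = 0.0135). Cd80 was at 24.1, 20.9 and 22.8 CPM in MRL/lpr, against 23.5, 24 and 19.2 CPM in MRL/MpJ, and overlapped (0.03 ± 0.146, adjusted p = 0.899). Pdcd1lg2 had 13, 0 and 29 reads in MRL/lpr, against 0, 0 and 1 in MRL/MpJ, and 1 MRL/lpr library thus had none. The ratio of depth-scaled reads was 36.8, with an exact 95% counting interval of 6.25 to 1490. It was called by edgeR without a filter on low counts (adjusted p = 0.00932) and by DESeq2 (0.0278). Without MRL/lpr replicate 2, the library with 0 reads, Pdcd1lg2 passed the filter and was called (0.00649). Leaving out that library removes the only MRL/lpr value at 0, so this call adds no support. Without any 1 of the MRL/MpJ libraries Pdcd1lg2 also passed the filter and was not called (adjusted p = 0.0611 to 0.113).

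The falls of Cd86 and Icam1 depended on the processing. With total counts only, the median of all genes moved to 0.27 from 0.01 on the log2 scale, and Cd86 (-0.05, adjusted p = 0.658) and Icam1 (-0.10, 0.419) were not called, while Cd40, Cd274 and Icosl were. Cd86 also lost its call with no filter on low counts (adjusted p = 0.102), without MRL/lpr replicate 1 (adjusted p = 0.0578) or 3 (0.0794) or MRL/MpJ replicate 3 (0.0591), and Icam1 without MRL/lpr replicate 3 (0.076). Icosl lost its call without MRL/lpr replicate 1 (0.0632) or 3 (0.0599) or MRL/MpJ replicate 1 (0.113) or 3 (0.0544). Cd40 and Cd274 were called under all 12 alternatives.

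**Figure D5:**
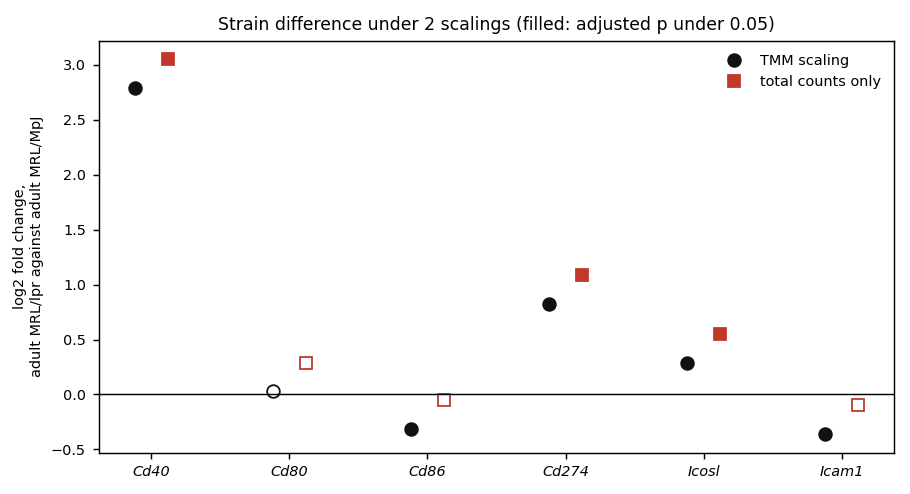
Log2 fold change of adult MRL/lpr against adult MRL/MpJ for 6 members, with TMM scaling (circles) and with total counts only (squares); filled symbols passed an adjusted p of 0.05. Cd86 and Icam1 move from -0.31 and -0.36 to -0.05 and -0.10 and lose their fill, and Cd40, Cd274 and Icosl keep it.

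Markers of other cells moved with strain. Beside the microglia sum given above, T and NK cell markers summed to 24.4 to 28.3 plain CPM in MRL/lpr, against 5.39 to 13.8 in MRL/MpJ, with 9 and 8 of 9 markers read and 5 of 9 called higher. B cell markers summed to 595 to 737 in MRL/lpr, against 364 to 405 in MRL/MpJ, mostly Ighm. Monocyte markers summed to 53.4 to 154, against 44.7 to 60.6, with overlap. Dendritic cell markers summed to 1210 to 1290 in MRL/lpr, against 785 to 1050, nearly all Siglech, a gene that microglia also express, and without it to 11.6 to 17.4, against 30.3 to 36.9. Border macrophage markers summed to 85.8 to 175 in MRL/lpr, against 252 to 302, with 5 of 6 called lower. The ranges of neutrophil (211 to 295, against 143 to 370), endothelial (200 to 235, against 155 to 235) and astrocyte markers (13.5 to 75.3, against 22.6 to 28.5) overlapped, as did oligodendrocyte markers (152 to 244, against 192 to 267). Mural cell and fibroblast markers summed to 55.1 to 62, against 80 to 117. Single markers were called lower in MRL/lpr for microglia (5 of 7), oligodendrocytes (2 of 5), mural cells and fibroblasts (2 of 5) and dendritic cells (1 of 4 tested). For monocytes 2 of 5 were called higher, and for B cells 2 of 4 tested were higher and 1 lower. For neutrophils, endothelial cells and astrocytes 0 were called. The part of these cells in the member differences was not tested.

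The adult profile of the members differed from that of the cultures, which were not compared by test because age and culture cannot be told apart. Cd86 and Icosl made up 33.8% ± 0.779 and 24.5% ± 0.456 of the length-scaled sum in MRL/lpr, against 38.1% ± 0.836 and 18.2% ± 1.5 in MRL/MpJ. Cd274 made up 4.62% ± 0.201 in MRL/lpr, against 2.38% ± 0.791. Of all genes, 24.1% were called higher and 21.6% lower in MRL/lpr, and the list counts that follow stand beside these shares. Of the lists, 6 of 15 CD40 signalling genes were higher and 1 lower in MRL/lpr, and 9 of 22 transcription factors were higher and 3 lower. Map3k14, the kinase NIK of the CD40 pathway, was 3.8-fold higher (adjusted p = 1.57e-06), and Irf7 was 3.36-fold higher (0.000506). Of 17 tested ligands outside the members, 3 were higher and 6 lower, Tnfrsf14 3.32-fold higher (adjusted p = 6.67e-06) and Nectin2 1.92-fold lower (1.79e-05). Of 12 tested adhesion genes, 3 were higher and 5 lower, Itgal 3.87-fold higher (adjusted p = 0.0475). F11r, named after its value was seen, was lower (log2 fold change -1.01, adjusted p = 3.33e-05). The 9 calls among ligands became 4 without MRL/lpr replicate 1 and 5 without MRL/lpr replicate 3. The 3 higher adhesion genes, Itgal among them, all lost their calls without MRL/lpr replicate 1, where 0 were higher and 5 lower, and the replicate block and the fit with no filter each left 1 higher and 5 lower. Icos, the receptor of ICOSL on T cells, had 66, 67 and 66 reads in MRL/lpr, against 5, 3 and 11 in MRL/MpJ (7.69-fold, adjusted p = 0.00079).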

How the data were processed

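RNA-seq counts of 24 libraries were used. Per the labels' protocols, RNA was purified on RNeasy columns and the library kit keeps strand. The submitters' processing notes name cutadapt 2.1, STAR 2.7.1a and mm10. The deposited table holds raw counts per gene with no normalisation by the authors. How reads were counted, and with which strand setting, is not given in the sources used here. No column lay outside the labelled samples.

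Tests used edgeR 4.0.16 in R 4.3.3, with filterByExpr, TMM and the robust quasi-likelihood F test. Adult libraries (6, with 13799 genes tested) and neonatal ones (18, with 14626) were fitted apart, leaving 4 and 12 residual degrees of freedom. A standard error is the absolute log2 fold change over the square root of F. No pair of libraries of a group was a duplicate (lowest chi-square per degree of freedom 5.07 over 24 pairs). Replicate numbers pair the neonatal libraries, by the data and not the labels: all 45 same-number pairs had correlated deviations (0.184 to 0.687). In adults 2 of 3 pairs were over 0.1, so no pairing was read.

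The members, gene lists, marker lists and comparisons were chosen with earlier results of these data known. All members are named, with Ikbke, and from each list up to 3 called genes of largest change could be named. Likeness is the Pearson correlation of log2 CPM (prior count 2) among genes with a mean of at least 2. DESeq2 1.42.0, RLE factors, total counts, 2 other filters, the replicate block, fits of the compared groups only and leaving out each library were tried. The fit was tested on simulated counts. With gene-specific dispersions the share of false calls in the simulated adult comparison was above the 0.05 aimed at, and a second simulation with trended dispersions, added after that was seen, was below it. Adult calls near the threshold are therefore less certain than their adjusted p states.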

Additional observations from a re-analysis of the deposited data

How the results depend on the processing

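Counts of members called with IFNg (5) and IFNa (5) were the same under every alternative run, with 1 library left out included. Those with TNFa (4) and the mixture (5) were too, except with DESeq2, which added Cd80 with TNFa (5) and Pdcd1lg2 with the mixture (6). With IL-6 the count was 0, and it was 1 (Icam1) with the replicate block, RLE factors, no filter or the compared groups only, and 2 (Cd40 and Icam1) with DESeq2; it stayed 0 with 1 library left out. The replicate block changed no other call of a member against unstimulated cells. With IL-6 it called 2 other ligands, 2 CD40 signalling genes, 3 transcription factors and 1 adhesion gene (0, 0, 1 and 0 without it), and 2 receptors with IFNg (1). The adult count was 5, it was 3 with total counts only, and it was 2 to 6 with 1 library left out, 2 when MRL/lpr replicate 3 was dropped, 3 when either MRL/lpr replicate 1 or replicate 3 of MRL/MpJ was; Pdcd1lg2 is among the 6 called without MRL/lpr replicate 2, the 6 called by DESeq2 and the 5 called with no filter. Against the sum of single changes the count was 4, and 2 to 4 with 1 library left out. Over the 15 pairs the 61 calls became 57 to 64. Signs turned with 1 library left out, for Cd80 in adults (0.03, range -0.07 to 0.1) and for Cd274 with IL-6 (0.09, range -0.07 to 0.18), and on the linear scale for Cd40 (1.82) and Cd86 (0.59) against the sum. The cause was not tested, except that the linear scale adds increments where the log scale multiplies them.

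Counts over all genes moved more. With the replicate block they were 3468 with IFNg (1886 without it), 714 with IL-6 (143), 3712 with IFNa (2118), 2542 with TNFa (1184) and 960 against the sum (245). DESeq2 gave 331 with IL-6 and 469 against the sum, and the compared groups alone 85 with IL-6. With 1 library left out they were 53 to 94 with IL-6 and as low as 76 against the sum, and 1240 with IFNg without IFNg replicate 2. With total counts only the split of higher and lower calls was 4783 and 1439 in adults (3328 and 2982 with TMM), 996 and 1211 with IFNg (1254 and 632), 1190 and 1560 with IFNa (1377 and 741) and 1547 and 4993 with the mixture (2289 and 2398), with median shifts of -0.21, -0.22 and -0.47 in the cultures. Depth limits Pdcd1lg2 and, in the cultures, Cd80.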
